A study of Macaca mulatta with 5 samples.

Results

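Giant messenger RNAs, whose exons add up to 10000 bp or more, were examined in 5 tissues of the rhesus macaque. Members were the transcripts that carry a gene identifier, have an exon length of at least 10000 bp in the cerebellum table and span under 300000 bp of genome. The rule found 212 transcripts of 155 genes, out of 51763 transcripts and 28633 genes with an identifier. Each gene was represented by the qualifying transcript with the highest sum of RPKM (reads normalised to the exon length in kilobases and to the properly mapped reads of the library) over the 5 tables. The rule used lengths only, so the levels below did not choose the genes, although the highest sum chose among the transcripts of 37 genes with several that qualified.

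The series held strand-specific poly(A)-positive RNA-Seq of cerebellum, kidney, lung, heart and spleen, with 1 library per tissue, all from animals labelled male and with no treatment, strain or age given in the labels. The study's methods place cerebellum, kidney, lung and heart in 1 animal sequenced to map RNA editing, and do not describe the spleen, whose animal is not given in the sources used here. The heart label speaks of RNA from 2 monkey tissues without saying which, and whether the heart library holds RNA of another tissue is not given in the sources used here. With 1 library per tissue there was no replicate check and no test, so a difference between tissues is a difference between these libraries. Intervals of levels and ratios cover counting error only, and those of detection shares are taken over the members.

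Very long messages usually encode giant proteins, such as the springs and scaffolds of muscle, the linkers between actin, microtubules and membranes, the motor subunits of dynein, ubiquitin ligases, chromatin regulators and large cell surface receptors. Others are long because of an extended untranslated region. Length also matters for measurement, since a long transcript collects more reads than a short one at the same RPKM, so its level is counted more precisely.

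Properly mapped reads per library ranged from 48306898 in kidney to 81517974 in cerebellum. For a transcript with 10000 bp of exon, 1 RPKM stood for 483 reads in kidney and 815 reads in cerebellum. A count of 0 allows a level of up to 3 reads, which is 0.00368 RPKM in cerebellum and 0.00621 RPKM in kidney at that length. Between 63.55% and 67.9% of transcripts with 1 to 20 reads had an even read number, and between 47.7% and 64.2% of the members did. Whether mates of a pair were counted separately is not given in the sources used here, and the intervals from read counts treat reads as independent. Reads are also shared between transcripts and cannot be added over the transcripts of a gene. Tissue markers were highest in their own tissue for 7 of 7 kidney, 6 of 6 lung, 5 of 5 heart and 6 of 6 spleen genes. In cerebellum this held for 6 of 7, the exception being CALB1, a calcium-binding protein of Purkinje cells and of the distal tubule, at 488 RPKM in kidney and 108 RPKM in cerebellum.

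The 155 reported transcripts had between 10006 and 18234 bp of exon, with a median of 11510 bp, and spanned 10381 to 298157 bp of the rheMac2 genome. Exon made up a median of 10.5% of the span, against 27.2% over all genes. The most compact was MAP1A, with 10042 bp of exon in a span of 10381 bp (96.7%), followed by AHNAK at 90.9% and the growth factor gene VEGFA at 89.0%. Among the reported transcripts, those of ENSMMUG00000008615 with 18234 bp and the adhesion receptor ADGRV1 with 17868 bp had the greatest exon length. TTN with 16277 bp, DST with 16176 bp and the sorting nexin SNX19 with 16038 bp came next. A TTN transcript that qualified but was not the reported one had 61804 bp. Chromosomes 1 and 7 held 19 members each. A further 259 genes had at least 8000 but under 10000 bp of exon in a span under 300000 bp, and 40 had 10000 bp or more of exon in a longer span.

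Members next to the limits differed widely among themselves. FREM2 (10006 bp), SVIL (10012 bp) and SPTB (10020 bp) lay just above the limit on exon length, and were highest in kidney at 4.945 RPKM, in lung at 22.6 RPKM and in cerebellum at 31.9 RPKM. For SVIL, an actin-binding supervillin, heart followed at 17.9 RPKM and was the highest tissue on each of the 3 other scales described below. Just below it, IPO9 (9978 bp) was highest in lung at 9.99 RPKM, COL6A3 (9916 bp) in lung at 9.61 RPKM and CHD6 (9907 bp) in lung at 7.49 RPKM. For IPO9 and CHD6 the next tissue was close, with 9.98 RPKM in cerebellum and 7.265 RPKM in kidney, and those tissues were highest on each other scale. For COL6A3 heart was highest under TMM and DESeq2. By span, ZBTB20, GAS7 and MYCBP2 lay just inside at 298157, 295100 and 291239 bp, with highest levels of 14.9 RPKM in cerebellum, 59.3 RPKM in cerebellum and 12.4 RPKM in spleen. SRGAP1, IGF1R and PDZD2 lay just outside at 311243, 320543 and 324590 bp, each highest in lung, at 2.48, 19.6 and 10.25 RPKM, although heart was highest for PDZD2 under TMM and DESeq2.

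A level of 1 RPKM or more was reached by 111 members in cerebellum (71.6%, 95% Wilson interval over members 64.1 to 78.1), where 39.9% of all genes reached it. In kidney 109 members did so (70.3%), against 41.8% of all genes, and in lung 119 members (76.8%), against 45.4%. Heart had 90 members at that level (58.1%, interval 50.2 to 65.55), against 32.5% of all genes, and spleen had 109 (70.3%), against 43.7%. The share was above that of all genes in each tissue, and heart had the lowest share for both. The 259 genes with somewhat shorter exon, from 8000 to under 10000 bp, had shares between 60.2% and 83.8%, above those of the members in each tissue, while genes with the same exon length in a span of 300000 bp or more had shares between 35.0% and 52.5%.

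Of the 155 members, 141 reached 1 RPKM in at least 1 tissue (54.8% of all genes did) and 72 in all 5 (46.45%, against 27.5% of all genes). Another 26 reached it in a single tissue (16.8%, against 8.80% of all genes). That tissue was cerebellum for 12, lung for 7, kidney for 3, and heart and spleen for 2 each. The split by tissue was not counted over all genes. The 14 that stayed below 1 RPKM throughout include the DNA repair gene BRCA2, the axonemal dynein DNAH8, the spectrin SPTBN5 and ADGRV1. DNAH8 had the fewest reads of these, at 0 RPKM in cerebellum, lung and heart, 0.00328 RPKM in kidney and 0.00236 RPKM in spleen, all at or under 3 reads. In all, 137 members had more than 3 reads in each tissue.

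The median level of the members was highest in spleen at 5.75 RPKM and in lung at 5.59 RPKM, followed by kidney at 3.72 RPKM and cerebellum at 3.14 RPKM, and was lowest in heart at 1.27 RPKM. Spleen and lung changed places under the upper quartile scale, at 4.30 and 4.602 RPKM. Over all genes the medians were 0.324, 0.486, 0.263, 0.243 and 0.0776 RPKM in the same order. The gap was smaller among genes that reached 1 RPKM in at least 1 tissue, where the members' medians were 6.28, 6.19, 4.26, 3.93 and 1.32 RPKM and those of all genes were 5.16, 5.09, 4.04, 3.32 and 1.57 RPKM. Among these detected genes the members lay above all genes in 4 tissues and below them in heart. The values of all genes take each gene's transcript with the highest RPKM sum. On that basis 110 detected genes had 10000 bp or more of exon, whatever their span. Their medians were 4.325, 5.33, 3.31, 3.81 and 1.215 RPKM in the same order, above all genes in lung and cerebellum alone. Detected genes with 4000 to under 5000 bp had medians of 6.53, 6.53, 4.6, 4.33 and 1.77 RPKM, above members and all genes throughout. Fewer cells of a type and less RNA per cell cannot be told apart in such bulk tissue.

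**Figure D1:**
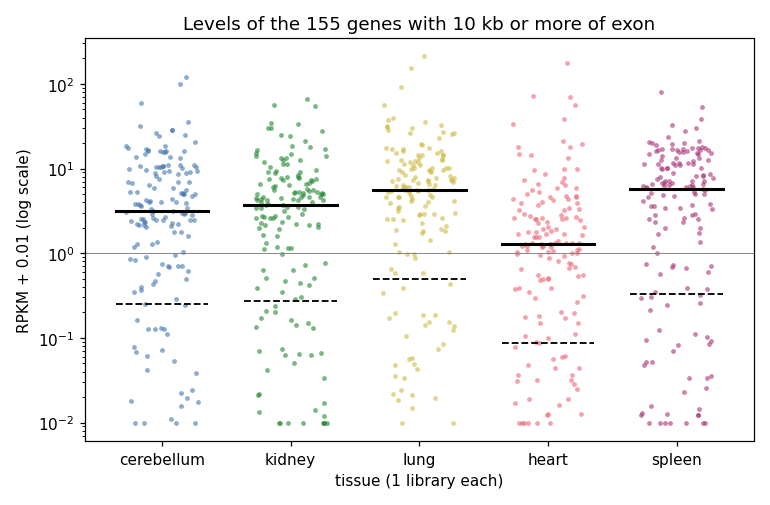
Level of each of the 155 genes in the 5 tissues, as RPKM + 0.01 on a log scale. Each point is a gene, the solid bar is the members' median, the dashed bar is the median of all 28633 genes, and the grey line marks 1 RPKM. The medians lie between 1.27 RPKM in heart and 5.75 RPKM in spleen, above those of all genes in every tissue.

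Heart was the lowest tissue for most of the broadly detected members. Of the 72 members at 1 RPKM or more in all 5 tissues, heart was the lowest tissue for 56 (77.8%), against 62.3% of the 7888 such genes overall. When the libraries were put on another scale, the heart values moved up by 0.81 (upper quartile), 0.95 (TMM) and 1.03 (DESeq2) on the log2 scale. Heart was then the lowest tissue for 35, 31 and 29 of the 72 members (48.6%, 43.1% and 40.3%), against 24.4%, 18.6% and 15.4% of all such genes. The members' share was higher than that of all genes under each scale, and the members' median was lowest in heart under each, at 2.23, 2.44 and 2.59 RPKM. The highest tissue exceeded the lowest by a median of 5.995 times for these 72 members and by 4.15 times for all such genes.

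DST, the cytoskeletal linker dystonin, had the most even level of the 72 as deposited. It measured 16.05 RPKM in lung and 14.75 in spleen, against 14.7 in kidney, 13.45 in heart and 13.3 in cerebellum. Its highest value was 1.203 times its lowest, and its exon of 16176 bp gave between 11467 and 20201 reads per tissue. That evenness belongs to the deposited scale, since on the other scales heart was the highest tissue at 23.6 to 27.5 RPKM beside 11.5 to 13.2 RPKM in lung. After DST came the kinase HIPK2 (1.84 times), the zinc finger protein ZNF277 (2.26 times) and the plakin PLEC (2.32 times). HIPK2, which overlaps the transcript of LUC7L2, and ZNF277 were named here after their values were seen. At the other end MAP1A spanned 97.5 times while still reaching 1 RPKM in each tissue.

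The share of properly mapped reads that fell on the reported transcripts was 2.03% for lung, 1.45% for spleen, 1.405% for cerebellum, 1.21% for kidney and 1.06% for heart. As a ratio to the reads on 1 transcript per gene, the values were 3.995%, 3.08%, 3.69%, 2.78% and 3.95% in that order. This second total takes the transcript with the highest RPKM sum, which is the reported one for 97 of the 155 members. It is thus not a whole that contains all the reads counted above it. Heart was lowest on the first total and near lung, the highest, on the second. The second value for heart is raised by this mismatch, since TTN had 181900 reads on the reported transcript and 53698 on the one in the total. Reads on 1 transcript per gene made up 26.9% of the properly mapped reads in heart and between 38.1% and 50.9% in the other tissues.

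A few genes carried most of these reads in heart. There 5 members held the first 50% of the members' reads, a share that took 26 members in spleen, 17 each in cerebellum and kidney, and 15 in lung. TTN alone took 27.0% in heart, followed by CMYA5 with 8.55%, ZNF106 with 6.95%, XIRP2 with 6.39% and IDH2 with 3.66%. AHNAK took the most in lung with 14.0%, and MAP1B in cerebellum with 10.3%. LRP2 took the most in kidney with 6.45% and ITGA1 in spleen with 6.07%, where the 5 leading members held 18.3% together.

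**Figure D2:**
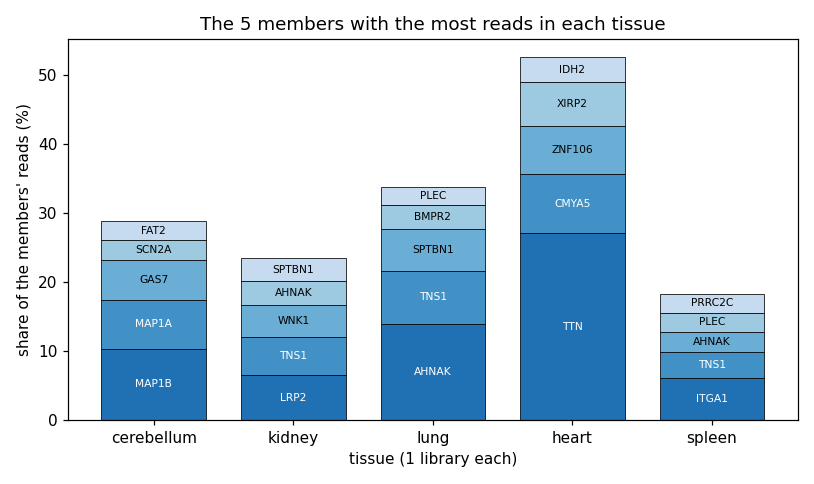
The 5 members with the most reads in each tissue, stacked as percent of the members' reads in that tissue. The stack reaches 52.6% in heart, where TTN takes 27.0%, and 18.3% in spleen.

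A gene was called tissue-led when its RPKM + 0.1 was at least 2 times that of the next tissue and its own RPKM was at least 1. Of the 141 members that reached 1 RPKM, 55 were tissue-led, a share of 39.0%, against 35.2% of all genes. A tissue is said to lead a gene only where this rule was met, and to be the highest otherwise. Cerebellum led 19 members (13.5%, against 9.79% of all genes), and lung led 15 (10.6%, against 7.07%). Kidney led 8 (5.67%, against 7.51%), spleen led 7 (4.965%, against 8.54%) and heart led 6 (4.255%, against 2.35%). The shares of the members were within a few percentage points of those of all genes in each tissue. The lung and spleen counts depended on the scale, at 12, 9 and 9 for lung and 5, 4 and 4 for spleen under the upper quartile, TMM and DESeq2 scales. Without the spleen library, lung led 35 members. Regardless of the margin, the highest tissue was spleen for 34.75% of the 141 members (34.2% of all genes), lung for 26.2% (21.6%), cerebellum for 22.7% (20.1%), kidney for 12.1% (18.7%) and heart for 4.255% (5.40%).

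**Figure D3:**
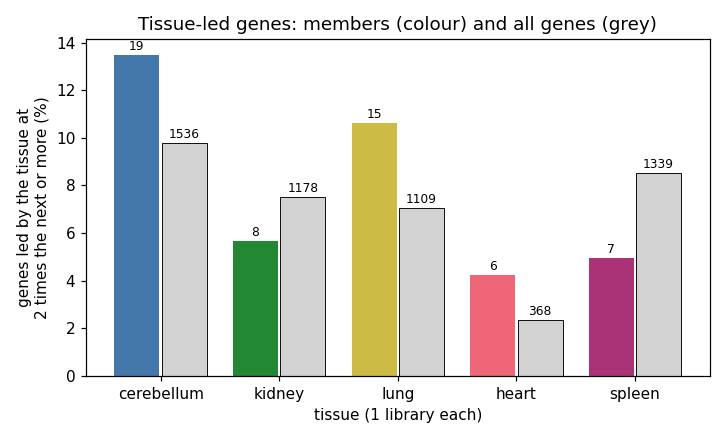
Share of genes led by each tissue at 2 times the next tissue or more, for the 141 detected members (coloured bars) and for all 15688 detected genes (grey bars), with the number of genes above each bar. The members' bar is the taller one in cerebellum, lung and heart and the shorter one in kidney and spleen.

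Among the 55, the leading RPKM was over 10 times the next in 23 members, 13 of them in cerebellum, 4 in lung, 3 in heart, 2 in kidney and 1 in spleen. It was over 100 times the next in 13. The shares of all genes at these margins were not counted, so these numbers do not set the members apart. Some of these ratios rest on few reads in the next tissue. Members that were not called had a highest tissue too, but often with little between the first and second place, as the values below show.

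Muscle proteins were highest in heart. Of 10 listed genes with an identifier, 3 were members, namely TTN (titin, the elastic filament of the sarcomere), CMYA5 (myospryn, a protein of the costamere) and XIRP2 (an actin-binding Xin repeat protein of intercalated discs). All 3 were led by heart under each scale, while heart led 2.35% of all detected genes as deposited. Their median in heart was 71.8 RPKM, against 0.0776 RPKM over all genes and 1.57 RPKM over detected genes. Their medians in the other tissues were at most 0.956 RPKM. TTN (chr12:42176478-42200651, ENSMMUG00000009038) measured 176.5 RPKM in heart, then 7.38 in lung, 3.69 in kidney and 0.285 in spleen, and 0.0588 in cerebellum, so that heart was 23.9 times (interval 23.4 to 24.4) that of the next tissue. CMYA5 (chr6:75951001-76015508) measured 71.8 RPKM in heart, followed by 0.956 in kidney and 0.2397 in cerebellum, with 0.1596 in lung and 0.0731 in spleen, and heart was 75.1 times (interval 69.25 to 81.65) that of kidney. XIRP2 (chr12:30882654-30903017) measured 56.97 RPKM in heart and 0.335 in cerebellum, against 0.142 in lung, 0.002501 in spleen and 0 in kidney, and heart was 170.3 times (interval 153 to 190.5) that of cerebellum. Beside them, 3 of the 5 skeletal muscle markers were found, which summed to 3111 RPKM in heart and to at most 5.305 RPKM elsewhere, nearly all of it from ACTA1 and CKM, which heart muscle expresses too. Their part in these values was not tested.

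Heart also led 3 members outside that list. ZNF106, a zinc finger protein, measured 70.7 RPKM in heart, then 25.9 in lung, 20.2 in spleen and 11.4 in kidney, and 8.22 in cerebellum, and heart was 2.73 times (interval 2.69 to 2.78) that of lung. IDH2, the mitochondrial isocitrate dehydrogenase, measured 33.7 RPKM in heart, followed by 15.2 in kidney and 9.69 in cerebellum, with 7.625 in spleen and 3.55 in lung. It was named here after its values were seen. Its span overlaps that of a ZNF710 transcript with over 1000 bp of exon, in tables that give no strand. ENSMMUG00000023096, for which no symbol was found, measured 7.71 RPKM in heart and 2.41 in cerebellum, against 0.859 in lung, 0.3125 in spleen and 0.1605 in kidney.

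TTN shows how the level depends on the transcript model. The tables hold 11 transcripts of the gene, 4 of which qualify, and none covers the whole locus. In heart the reported model, with 16277 bp of exon over the first 24.2 kb of the locus, had 176.5 RPKM. A model of 1644 bp at the same end had 516 RPKM, whereas the model with the greatest exon length, 61804 bp between 21.3 and 270 kb, had 17.9 RPKM. The other 8 models lay between 23.4 and 102 RPKM. Heart was the highest tissue for each of the 11 models, and kidney or lung came next.

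**Figure D4:**
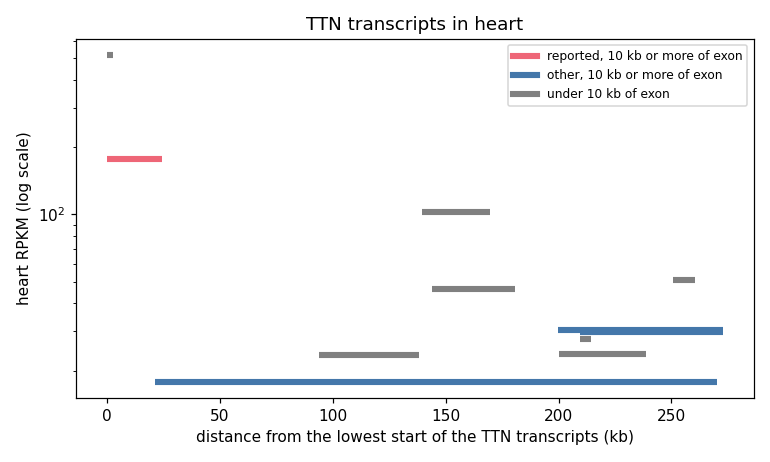
The 11 TTN transcripts in heart, each drawn as a bar from its start to its end in kb from the lowest start (x axis) at its RPKM on a log scale (y axis). The reported model is red, other models with 10000 bp or more of exon are blue and shorter ones are grey. Levels run from 17.9 RPKM for the longest model to 516 RPKM for the short one at the left end.

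Neuronal genes were highest in cerebellum among the members. Of 25 listed genes with an identifier, 5 were members. Their median in cerebellum was 8.89 RPKM, against 0.243 RPKM over all genes and 3.32 RPKM over detected genes. Their medians in the other tissues lay between 0.0423 and 0.141 RPKM. Of the members, 4 were tissue-led (35.2% of all detected genes were). SCN2A, a voltage-gated sodium channel (chr12:28888969-29054744), measured 35.1 RPKM in cerebellum, then 0.1 in heart, 0.03845 in lung and 0.0131 in spleen, and 0.00182 in kidney, the last 4 values resting on 1 to 72 reads. The related channel SCN8A (chr11:48725085-48939574) measured 18.5 RPKM in cerebellum, followed by 0.375 in lung and 0.234 in spleen, with 0.141 in kidney and 0.0957 in heart, and cerebellum was 49.3 times (interval 44.4 to 54.95) that of lung. UNC80, a subunit of the sodium leak channel complex, measured 8.89 RPKM in cerebellum and 0.0559 in kidney, against 0.0516 in heart, 0.0423 in spleen and 0.0393 in lung. BSN, the active zone scaffold bassoon, measured 6.41 RPKM in cerebellum, then 0.381 in kidney, 0.0476 in lung and 0.0256 in spleen, and 0.0217 in heart. The exception to the call was TENM3, a teneurin of synaptic partner matching, whose 1.02 RPKM in cerebellum was 1.445 times (interval 1.27 to 1.64) that of kidney.

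Microtubule-associated proteins were the most abundant members in cerebellum. MAP1B (chr6:68255885-68359806), which binds microtubules in growing axons, measured 119.8 RPKM in cerebellum, followed by 9.235 in lung and 5.59 in heart, with 0.765 in kidney and 0.342 in spleen, and cerebellum was 12.97 times (interval 12.7 to 13.3) that of lung. MAP1A (chr7:21959992-21970372), its relative of mature neurons, measured 98.2 RPKM in cerebellum and 3.89 in heart, against 3.47 in lung, 1.575 in kidney and 1.01 in spleen, and cerebellum was 25.25 times (interval 24.25 to 26.3) that of heart. GAS7, a growth arrest specific protein of neurons, measured 59.3 RPKM in cerebellum, then 5.298 in lung, 4.55 in spleen and 4.35 in heart, and 0.342 in kidney. These 3 genes together held 23.2% of the members' reads in cerebellum.

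ADCY1, a calcium-stimulated adenylyl cyclase, measured 28.2 RPKM in cerebellum, followed by 0.1997 in kidney and 0.1601 in heart, with 0.116 in lung and 0.0755 in spleen, and cerebellum was 141 times (interval 118 to 171) that of kidney. ADD2, the beta subunit of adducin in the membrane skeleton, measured 24.8 RPKM in cerebellum and 0.192 in heart, against 0.02325 in kidney, 0.0144 in lung and 0 in spleen. SVOP, a transporter-like protein of synaptic vesicles, measured 10.3 RPKM in cerebellum, then 0.01865 in heart, 0.00506 in lung and 0 in kidney, and 0 in spleen, and cerebellum was 552 times (interval 316 to 1069) that of heart, whose value rests on 12 reads. Outside the cerebellum these 3 genes stayed at or below 0.200 RPKM. SPTB, the beta-spectrin of the erythrocyte and of some neurons, was led by cerebellum as well, at 31.9 RPKM in cerebellum, followed by 6.29 in heart and 0.225 in kidney, with 0.202 in spleen and 0.0744 in lung. Of 4 listed blood markers 2 were found, ALAS2 and HBA1. ALAS2 was highest in spleen at 0.947 RPKM, and HBA1 had 0 RPKM in each tissue, spleen included. A marker at 0 RPKM throughout cannot show how much blood a library holds. The part of blood in the SPTB values was not tested.

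Large membrane receptors split between tissues. Of 24 listed genes with an identifier, 9 were members, of which 3 reached 1 RPKM in all 5 tissues (27.5% of all genes did) and 4 were tissue-led (35.2% of all detected genes were). Their medians were 5.355 RPKM for lung, 5.05 for cerebellum, 4.255 for kidney, 2.799 for spleen and 1.185 for heart. LRP2, the endocytic receptor megalin of the proximal tubule (chr12:32783124-32955391), measured 56.55 RPKM in kidney and 0.115 in spleen, against 0.00837 in lung, 0.000887 in cerebellum and 0 in heart, and kidney was 490.5 times (interval 406 to 599) that of spleen. Its relative LRP1, a broadly used clearance receptor, measured 28.6 RPKM in lung, then 24.5 in cerebellum, 13.4 in spleen and 5.48 in kidney, and 4.77 in heart, with lung ahead as deposited and cerebellum ahead on each other scale. The span of LRP1 overlaps that of an NXPH4 transcript with over 1000 bp of exon.

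The Fat cadherins, giant adhesion molecules with many cadherin repeats, were each highest in a different tissue. FAT2, known from cerebellar granule cells, measured 26.4 RPKM in cerebellum, followed by 0.129 in lung and 0.0674 in heart, with 0.0114 in kidney and 0 in spleen, and cerebellum was 204 times (interval 174 to 242) that of lung. FAT1 measured 18.1 RPKM in kidney and 8.02 in lung, against 7.01 in cerebellum, 1.196 in heart and 0.668 in spleen, and kidney was 2.255 times (interval 2.195 to 2.32) that of lung. FAT4 measured 3.45 RPKM in lung, then 2.799 in spleen, 0.487 in heart and 0.436 in kidney, and 0.361 in cerebellum, with lung 1.23 times (interval 1.165 to 1.31) that of spleen, which is short of the call. CELSR3, a cadherin of axon guidance, was led by cerebellum at 2.998 RPKM, against at most 0.0237 RPKM elsewhere. NOTCH2 and DCHS1 were highest in spleen at 17.1 and 10.25 RPKM, ahead of lung at 14.5 and 9.604 RPKM, an order that turned round for DCHS1 on the upper quartile scale.

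Kidney led 8 members, with the widest margin for LRP2. PRLR, the prolactin receptor, measured 16.5 RPKM in kidney, followed by 1.18 in spleen and 0.972 in lung, with 0.0678 in cerebellum and 0.0212 in heart. CLCN5, the endosomal chloride-proton exchanger of the proximal tubule (chrX:47562605-47735439), measured 33.8 RPKM in kidney and 3.78 in spleen, against 2.83 in lung, 1.27 in cerebellum and 0.283 in heart, and kidney was 8.95 times (interval 8.58 to 9.33) that of spleen. TLN2, a talin that links integrins to actin, measured 34.2 RPKM in kidney, then 5.601 in cerebellum, 1.85 in lung and 1.655 in heart, and 1.35 in spleen, and kidney was 6.105 times (interval 5.92 to 6.29) that of cerebellum. FREM2, a basement membrane protein, reached 4.945 RPKM in kidney and 0.5555 RPKM in spleen, with at most 0.131 RPKM in the other tissues. WNK1, a kinase that controls renal salt transport, measured 55.3 RPKM in kidney, followed by 29.9 in lung and 29.8 in spleen, with 16.7 in cerebellum and 9.76 in heart. Kidney was 1.85 times (interval 1.815 to 1.88) that of lung for WNK1 as deposited and passed 2 under each of the other scales.

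**Figure D5:**
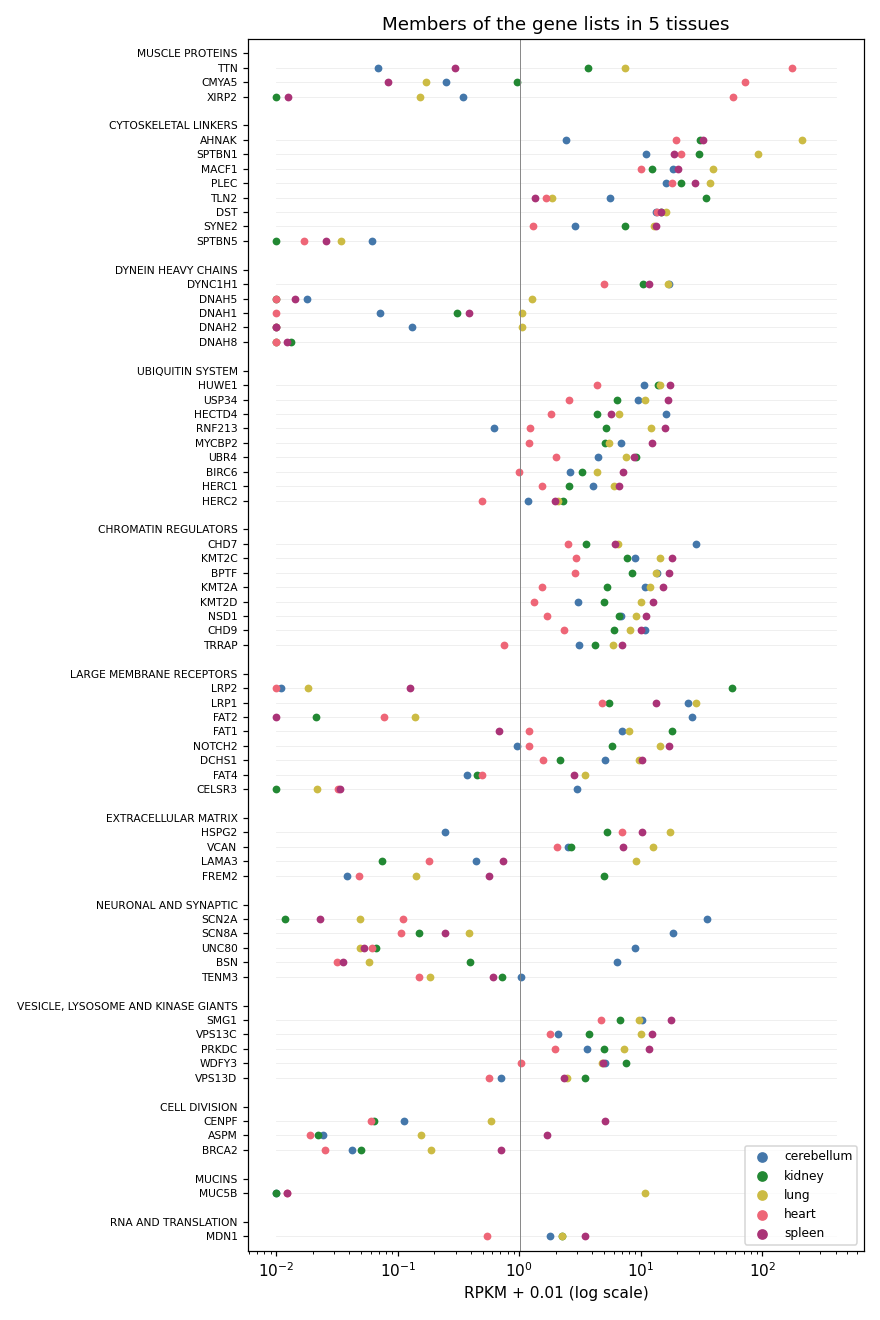
RPKM + 0.01 (log scale) of 60 members that belong to a gene list, 1 row per gene and 1 point per tissue, grouped by list. Muscle genes have their heart point far to the right, neuronal genes their cerebellum point, and ubiquitin and chromatin genes have points closer together, mostly with heart on the left.

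Cytoskeletal linkers had the highest median of the 12 lists in kidney, lung and spleen. Of 22 listed genes with an identifier 8 were members. Of these, 7 reached 1 RPKM in all 5 tissues (27.5% of all genes did) and 3 were tissue-led (35.2% of all detected genes were). Their medians were 26.7 RPKM for lung, 17.98 for kidney, 16.7 for spleen, 11.7 for heart and 8.32 for cerebellum. AHNAK, a giant scaffold protein under the plasma membrane (chr14:11559900-11574617), measured 212 RPKM in lung and 32.2 in spleen, against 30.4 in kidney, 19.5 in heart and 2.43 in cerebellum, and lung was 6.59 times (interval 6.51 to 6.67) that of spleen. SPTBN1, the non-erythrocytic beta-spectrin (chr13:54847885-54956656), measured 92.3 RPKM in lung, then 30.1 in kidney, 21.3 in heart and 18.7 in spleen, and 11.03 in cerebellum, and lung was 3.06 times (interval 3.02 to 3.11) that of kidney as deposited but 2.03, 1.62 and 1.52 times the next tissue under the other scales. The plakins PLEC and MACF1 were highest in lung too, at 37.3 and 39.5 RPKM, with 27.98 and 20.2 RPKM in spleen, but on each other scale heart was highest for PLEC. SYNE2, a nesprin of the nuclear envelope, had 13.3 RPKM in spleen and 12.8 RPKM in lung, and lung was highest on the upper quartile scale. Lung was the highest tissue for 5 of the 8 as deposited (21.6% of all detected genes) and for 3 or 4 under the other scales.

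TNS1, the focal adhesion protein tensin 1 (chr12:81610875-81718860), had the highest sum of RPKM of all members. It measured 153 RPKM in lung, followed by 66.1 in kidney and 53.15 in spleen, with 38.3 in heart and 2.47 in cerebellum, and lung was 2.32 times (interval 2.29 to 2.35) that of kidney. That call was lost under the other scales, at 1.875, 1.5 and 1.403 times the next tissue, although lung stayed the highest. ITGA1, the alpha subunit of a collagen-binding integrin (chr6:50422911-50595131), measured 79.9 RPKM in spleen and 35.4 in lung, against 12.7 in kidney, 5.93 in heart and 0.464 in cerebellum, and spleen was 2.255 times (interval 2.22 to 2.29) that of lung. ITGA1 kept the call under each scale.

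Dynein heavy chains, the motor subunits of cilia and of transport along microtubules, differed by type. Of 13 with an identifier 5 were members. The cytoplasmic chain DYNC1H1 measured 17.15 RPKM in cerebellum, then 16.8 in lung, 11.75 in spleen and 10.3 in kidney, and 4.98 in heart. It alone of the 5 reached 1 RPKM in all tissues, which 27.5% of all genes did. The axonemal chains DNAH5, DNAH1 and DNAH2 were highest in lung, at 1.265, 1.03 and 1.03 RPKM. DNAH5 had at most 0.00795 RPKM elsewhere, on 9 reads in cerebellum. DNAH1 reached 0.378 RPKM in spleen and 0.294 RPKM in kidney, and DNAH2 reached 0.1204 RPKM in cerebellum. Since their lung values lie so near 1 RPKM, DNAH1 and DNAH2 fell below it under each other scale and DNAH5 under TMM and DESeq2, with lung still the highest. The 4 ciliated cell markers summed to 23.85 RPKM in lung and 5.04 RPKM in kidney, with 1.255 RPKM in cerebellum, 0.212 RPKM in spleen and none in heart, and their part in the dynein values was not tested.

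Lung also held the mucin and a laminin. MUC5B, a gel-forming mucin of the airways (chr14:1035401-1076448), measured 10.9 RPKM in lung from 11623 reads, with 2 reads in heart, 2 in spleen and none in cerebellum or kidney. Its lung level was 4731 times that of heart, with an exact interval of 1309 to 39070 that reflects those 2 reads. LAMA3, a laminin chain of epithelial basement membranes, measured 9.07 RPKM in lung, followed by 0.72 in spleen and 0.428 in cerebellum, with 0.172 in heart and 0.0644 in kidney, and lung was 12.6 times (interval 11.5 to 13.8) that of spleen. ENSMMUG00000015488, with no symbol found, had 1748 reads and 1.81 RPKM in lung, and 2 reads or fewer in each other tissue.

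Of 17 extracellular matrix genes with an identifier 4 were members, with medians of 10.8 RPKM for lung, 3.91 for spleen, 3.81 for kidney, 1.096 for heart and 0.332 for cerebellum. Besides LAMA3 and FREM2, these were HSPG2 (perlecan, a heparan sulfate proteoglycan of basement membranes) and VCAN (versican, a chondroitin sulfate proteoglycan). HSPG2 measured 17.4 RPKM in lung and 10.2 in spleen, against 6.996 in heart, 5.25 in kidney and 0.236 in cerebellum. VCAN measured 12.6 RPKM in lung, then 7.11 in spleen, 2.675 in kidney and 2.49 in cerebellum, and 2.02 in heart. Both were highest in lung as deposited and neither was called, and heart was highest for HSPG2 under TMM and DESeq2.

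Ubiquitin system genes were detected broadly. Of 13 listed genes 10 were members. Of these, 7 reached 1 RPKM in all 5 tissues (27.5% of all genes did) and 1 was tissue-led (35.2% of all detected genes were), with medians of 9.41 RPKM for spleen, 7.04 for lung, 5.14 for kidney, 4.35 for cerebellum and 1.68 for heart. Spleen was the highest tissue for 7 of the 10 as deposited, against 34.2% of all detected genes, and for 5 or 6 under the other scales. HUWE1, a giant ubiquitin ligase, measured 17.4 RPKM in spleen, followed by 14.3 in lung and 13.9 in kidney, with 10.5 in cerebellum and 4.32 in heart, with spleen 1.21 times (interval 1.19 to 1.24) that of lung as deposited and kidney highest under TMM and DESeq2. RNF213, an interferon-induced ligase, measured 15.9 RPKM in spleen and 12.15 in lung, against 5.19 in kidney, 1.21 in heart and 0.604 in cerebellum, and the ligase MYCBP2 measured 12.4 RPKM in spleen, then 6.85 in cerebellum, 5.45 in lung and 5.08 in kidney, and 1.19 in heart. HECTD4 was the 1 called, at 16.2 RPKM in cerebellum and 6.57 RPKM in lung. Heart was the lowest tissue for 9 of these 10 genes as deposited and for 8 on each other scale, and RNF213 was lowest in cerebellum throughout. Among all genes at 1 RPKM in all 5 tissues, heart was lowest for 62.3% as deposited and for 24.4%, 18.6% and 15.4% under the upper quartile, TMM and DESeq2 scales.

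Chromatin regulators were detected broadly too. Of 28 listed genes 8 were members. Of these, 7 reached 1 RPKM in all 5 tissues and 1 was tissue-led, beside the same shares of 27.5% and 35.2% over all genes, with medians of 11.8 RPKM for spleen, 9.899 for cerebellum, 9.55 for lung, 5.66 for kidney and 1.99 for heart. Spleen was the highest tissue for 6 of the 8 as deposited (34.2% of all detected genes), for 5 under the upper quartile scale and for 4 under TMM and DESeq2, where cerebellum was highest for the other 4. The tissue-led member was CHD7, in cerebellum. Heart was the lowest tissue for all 8 as deposited and for 7 on each other scale. Among all genes at 1 RPKM in all 5 tissues it was lowest for 62.3% as deposited and for 15.4% to 24.4% on the other scales. The histone methyltransferase KMT2A measured 15.1 RPKM in spleen, followed by 11.8 in lung and 10.8 in cerebellum, with 5.29 in kidney and 1.53 in heart. Under TMM and DESeq2 cerebellum was highest for KMT2A. Its relatives KMT2C and KMT2D reached 18.04 and 12.6 RPKM in spleen. BPTF, a nucleosome remodelling subunit, measured 17.1 RPKM in spleen and 13.5 in cerebellum, against 13.3 in lung, 8.49 in kidney and 2.85 in heart, with cerebellum highest on each other scale. CHD7, a chromodomain remodeller (chr8:63323477-63449432), stood apart at 28.2 RPKM in cerebellum, then 6.44 in lung, 6.12 in spleen and 3.498 in kidney, and 2.51 in heart, with cerebellum 4.38 times (interval 4.25 to 4.505) that of lung. The related CHD9 had 10.8 RPKM in cerebellum and 10.1 RPKM in spleen.

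A further 5 members were grouped as vesicle, lysosome and kinase giants, of 17 listed. None was called (35.2% of all detected genes were), and 4 reached 1 RPKM in all 5 tissues (27.5% of all genes did). Their medians were 11.7 RPKM for spleen, 7.19 for lung, 5.01 for kidney, 3.601 for cerebellum and 1.79 for heart. SMG1, a kinase of nonsense-mediated decay, measured 17.6 RPKM in spleen, followed by 10.3 in cerebellum and 9.64 in lung, with 6.78 in kidney and 4.685 in heart. PRKDC, the catalytic subunit of the DNA-dependent protein kinase, measured 11.7 RPKM in spleen and 7.19 in lung, against 5.01 in kidney, 3.601 in cerebellum and 1.94 in heart. The lipid transfer protein VPS13C was highest in spleen at 12.4 RPKM, whereas VPS13D and the autophagy scaffold WDFY3 were highest in kidney at 3.44 and 7.57 RPKM. MDN1, a ribosome assembly ATPase and the single member of the RNA and translation list, was highest in spleen at 3.455 RPKM.

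Cell division genes were highest in spleen. Of 4 with an identifier 3 were members, and 2 of them were tissue-led (35.2% of all detected genes were). CENPF, a kinetochore protein of dividing cells, measured 5.015 RPKM in spleen, then 0.578 in lung, 0.102 in cerebellum and 0.0533 in kidney, and 0.05002 in heart, and spleen was 8.68 times (interval 7.87 to 9.59) that of lung. ASPM, a spindle pole protein, measured 1.69 RPKM in spleen, followed by 0.144 in lung and 0.0141 in cerebellum, with 0.0119 in kidney and 0.00909 in heart, and spleen was 11.7 times (interval 9.69 to 14.3) that of lung. BRCA2 measured 0.692 RPKM in spleen and 0.179 in lung, against 0.03996 in kidney, 0.03197 in cerebellum and 0.0152 in heart, below 1 RPKM in each tissue. The order spleen then lung held for all 3 and the counting intervals of the first and second place did not overlap. At these depths that is also so for far smaller differences, and the share of all genes was not counted.

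Spleen led further members besides these and ITGA1. CIITA, the transactivator of MHC class II genes (chr20:10945792-11002357), measured 19.3 RPKM in spleen, then 4.15 in lung, 1.09 in heart and 0.631 in kidney, and 0.0433 in cerebellum, and spleen was 4.65 times (interval 4.49 to 4.82) that of lung. The span of CIITA overlaps that of a DEXI transcript with over 1000 bp of exon. The transcription factor KLF12 measured 11.3 RPKM in spleen, followed by 4.46 in kidney and 2.98 in cerebellum, with 2.62 in lung and 1.298 in heart. KLF12 lost its call under TMM and DESeq2. ENSMMUG00000016672 had 3.63 RPKM in spleen and lost its call under each other scale.

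PRRC2C and PLEC, which rank among the 10 members with the highest sum of RPKM, were not tissue-led under any scale. PRRC2C measured 38.15 RPKM in spleen and 31.65 in lung, against 18.5 in kidney, 17.7 in cerebellum and 5.86 in heart, and PLEC measured 37.3 RPKM in lung, then 27.98 in spleen, 21.3 in kidney and 18.05 in heart, and 16.1 in cerebellum. As deposited, the first and second tissue differed by more than the counting interval for both, with spleen 1.205 times (interval 1.185 to 1.23) that of lung for PRRC2C and lung 1.33 times (interval 1.31 to 1.35) that of spleen for PLEC. Spleen stayed ahead for PRRC2C on each other scale, unlike lung for PLEC.

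Only 36 of the 155 members had a single transcript in the tables. A shorter transcript, with under 10000 bp of exon, was listed for 106 of the 155 members, and it had the higher sum of RPKM in 58 of them, by 2 times or more in 13. The widest gap was that of EGFL7, an endothelial secreted protein, whose transcript of 1489 bp had 114.5 RPKM in lung beside 18.9 RPKM for the long one of 10782 bp. In reads the order turned round, with 13259 for the short and 15861 for the long transcript, which overlaps AGPAT2. VEGFA had 100.7 RPKM in kidney on a transcript of 2827 bp and 27.5 RPKM on the long one. IDH2 had 132 RPKM in heart on 1275 bp and 33.7 RPKM on the long one. EGFL7 and VEGFA were named here after their values were seen. The highest tissue, whatever the margin, was the same for the long and the shorter transcript in 85 of the 106 genes and differed in 21. The 21 include DNAH8, whose shorter transcript had 0 reads in each tissue. Transcripts of a gene can share reads, so their highest tissues are not independent.

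Sharing of positions limits single genes further. The span of 67 members overlapped that of another gene with an identifier, and 76 overlapped some other transcript, in tables without strand. Gene symbols were found for 147 of the 155 members. The tables place HTT, the huntingtin gene, on chromosome 1, unlike the RefSeq table, so its symbol is uncertain. It measured 5.92 RPKM in cerebellum, followed by 5.31 in spleen and 4.81 in lung, with 2.74 in kidney and 1.08 in heart.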

How the data were processed

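Total RNA was extracted with Trizol and poly(A)-positive RNA was made into strand-specific dUTP libraries, 1 per tissue. Per the labels, TopHat 1.2.0 was among the authors' processing tools, and the study's methods describe BWA alignment to rheMac2 and to Ensembl transcripts and revised gene models. The counting tool is not given in the sources used here. Each deposited table holds raw read counts and RPKM for 51763 transcripts. The deposited RPKM values equal the read count divided by exon length and by the properly mapped reads in every row, in RPKM units (0 rows differed). Starts are counted from 0 in 4 tables and from 1 in the spleen table, and are given here from 1. Of these transcripts, 8057 carry no gene identifier and were left out, 12 of them with 10000 bp or more of exon. Genes are named by the symbols paired with their identifiers, and 15556 of 28633 genes had one.

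No test was run, because each tissue has 1 library. Levels carry 95% Wilson intervals and ratios of 2 tissues carry exact intervals, both from the read counts and for counting error only. Shares of members detected carry 95% Wilson intervals over the 155 members, which treat members as independent draws and do not measure counting error. The background takes, for every gene, the transcript with the highest RPKM sum, which for 97 of the 155 members is the reported one. Levels were rescaled by the upper quartile, by edgeR 4.0.16 TMM factors and by DESeq2 1.42.0 size factors, used for scaling alone. Calculations used Python 3.11.15, pandas 2.3.3, scipy 1.17.1 and R 4.3.3, and scripts were tested on simulated data. Genes named are the 10 members with the highest RPKM sum, the 5 per tissue with the highest ratio of RPKM + 0.1 to that of the next tissue, the 5 with the greatest exon length, the 3 per tissue with the most reads, the 3 nearest either side of each limit, and members of 12 gene lists (212 symbols). Members and lists were chosen with earlier results of these data known. Values of some of these genes are not reported here, though they stay in the counts and medians.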

Additional observations from a re-analysis of the deposited data

How the results depend on the processing

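No paired analysis was possible because each tissue has 1 library and no replicate can be left out. The share of members detected was 78.7% in cerebellum and 68.4% in heart at 0.5 RPKM, 36.8% in heart at 2 RPKM, and 60.6% in spleen with an exon limit of 12000 bp. The other detection shares stayed within their intervals over members. The share of reads depends on the total and on the limit. With 1 transcript per gene as the total it is a ratio, since that total holds another transcript for some members. In cerebellum it was 3.69% with 1 transcript per gene as the total, 3.001% at 8000 bp and 0.713% at 12000 bp. In kidney these were 2.78%, 2.77% and 0.557%, in lung 3.995%, 4.42% and 1.08%, in heart 3.95%, 1.88% and 0.706%, and in spleen 3.08%, 3.425% and 0.599%. Lung led 9 members under TMM and 9 under DESeq2, against 15 as deposited, and 35 without spleen, where 1 competing tissue fewer is the alternative's own construction. Spleen led 4 under TMM and 4 under DESeq2, against 7. The counts for cerebellum, kidney and heart stayed within 1.5 times under each alternative, and none of the 41 named genes that were called changed its highest tissue under the upper quartile or TMM scale. Of 45 named genes that were not called, 9 changed it under the upper quartile and 10 under TMM, such as DST from lung (13.2 RPKM) to heart (23.6 RPKM) under the upper quartile. Median levels under the upper quartile, TMM and DESeq2 scales were 3.35, 3.41 and 3.42 RPKM in kidney, 4.602, 4.04 and 4.01 RPKM in lung, 2.23, 2.44 and 2.59 RPKM in heart and 4.30, 4.12 and 4.01 RPKM in spleen, so that lung was above spleen under the upper quartile and level with it under DESeq2. In cerebellum they were 3.44 RPKM under TMM and 3.36 RPKM under DESeq2. The cause of these shifts was not tested. The limit on depth is that 18 members had 3 reads or fewer in some tissue.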
